A study of Oryza sativa and Triticum aestivum and Oryza sativa Japonica Group with 26 samples.

Results

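The unplaced sequence of bread wheat, named chrUn in the deposited peak lists, held 49808 of the 1226985 ChIP-seq peaks in 3 wheat lists. Its peaks were chosen by the sequence name alone, with no measured value. They were 32316 of 779349 H3K27me3 peaks (4.15%), 8069 of 223666 peaks of an H3K4me3 library treated with duplex-specific nuclease, called DSN below (3.61%), and 9423 of 223970 H3K4me3 peaks (4.21%). The furthest peak end on chrUn lay at 481 Mb, and chrUn made up 3.31% of the 14546 Mb covered by all wheat sequences. The other peaks lay on the 21 chromosomes, which the files split into 2 parts each.

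The series held 26 samples of rice and wheat, of which the 3 wheat ChIP samples are used here. All 3 came from seedlings of the cultivar Chinese Spring, with no treatment or mutation named in the labels. After 3 days of germination in water the seedlings spent 9 days in soil under long days, and shoots and roots were harvested as a whole. Each list therefore averages over the cell types of a whole seedling. The groups were an H3K27me3 ChIP library, a DSN-treated H3K4me3 ChIP library and an H3K4me3 ChIP library, with 1 library in each, sequenced as paired reads of 151 bp. No comparison between lists or between chrUn and the chromosomes has a replicate check, and no p-value is given. Values on chrUn are set beside the value over the 21 chromosomes and the lowest and highest chromosome. Shares carry 95% Wilson intervals, which cover counting error only, and peaks of a list share 1 library and can neighbour each other.

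Bread wheat is a hexaploid with A, B and D subgenomes. The unplaced sequence of an assembly strings together scaffolds that could not be assigned to a chromosome, so that neighbours on it need not be neighbours in the genome. Trimethylation of histone H3 at lysine 4, H3K4me3, marks the starts of active genes. Trimethylation at lysine 27, H3K27me3, is laid down by Polycomb proteins over silent genes and often covers a gene body. Duplex-specific nuclease cuts double-stranded DNA that re-forms quickly from abundant fragments, and is used to lower the part of a library that comes from repeats.

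chrUn carried more H3K27me3 peaks per length than any chromosome. It had 67.2 H3K27me3 peaks per Mb, against 53.1 over the 21 chromosomes, where the values ran between 41.8 on 4B and 66.0 on 7D. The H3K4me3 list gave 19.6 peaks per Mb of chrUn, against 15.3 over the chromosomes, with 11.6 on 4B as the lowest and 18.3 on 5D as the highest. Density of DSN peaks on chrUn was 16.8 per Mb, against 15.3 over the chromosomes, and 5 of the 21 chromosomes lay above it. The ratios of chrUn to the chromosomes were thus 1.27 for H3K27me3, 1.09 for DSN and 1.28 for H3K4me3. Only peaks of score 100 or more gave a ratio of 2.09 for H3K27me3 and a reversed ratio of 0.885 for DSN.

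The bases under peaks followed the peak numbers for H3K27me3, but not in the DSN and H3K4me3 lists. H3K27me3 peaks covered 45.4 Mb, or 9.45% of chrUn, against 7.54% of the chromosomes (5.46% on 4B to 9.73% on 7D). DSN peaks covered 14.3 Mb, or 2.97% of chrUn, against 4.19% of the chromosomes, and the lowest chromosome had 3.20%. H3K4me3 peaks covered 18.1 Mb, or 3.77% of chrUn, against 4.94%, with 3.81% on the lowest chromosome. Both H3K4me3 libraries thus covered a smaller share of chrUn as a whole than of every chromosome. The cover was uneven along chrUn. In the first 140 Mb it was 7.36% for H3K4me3 and 6.09% for DSN, above the highest chromosome, 5D, with 6.15% and 5.26%. Beyond the first 140 Mb it was 2.30% and 1.69%.

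**Figure D1:**
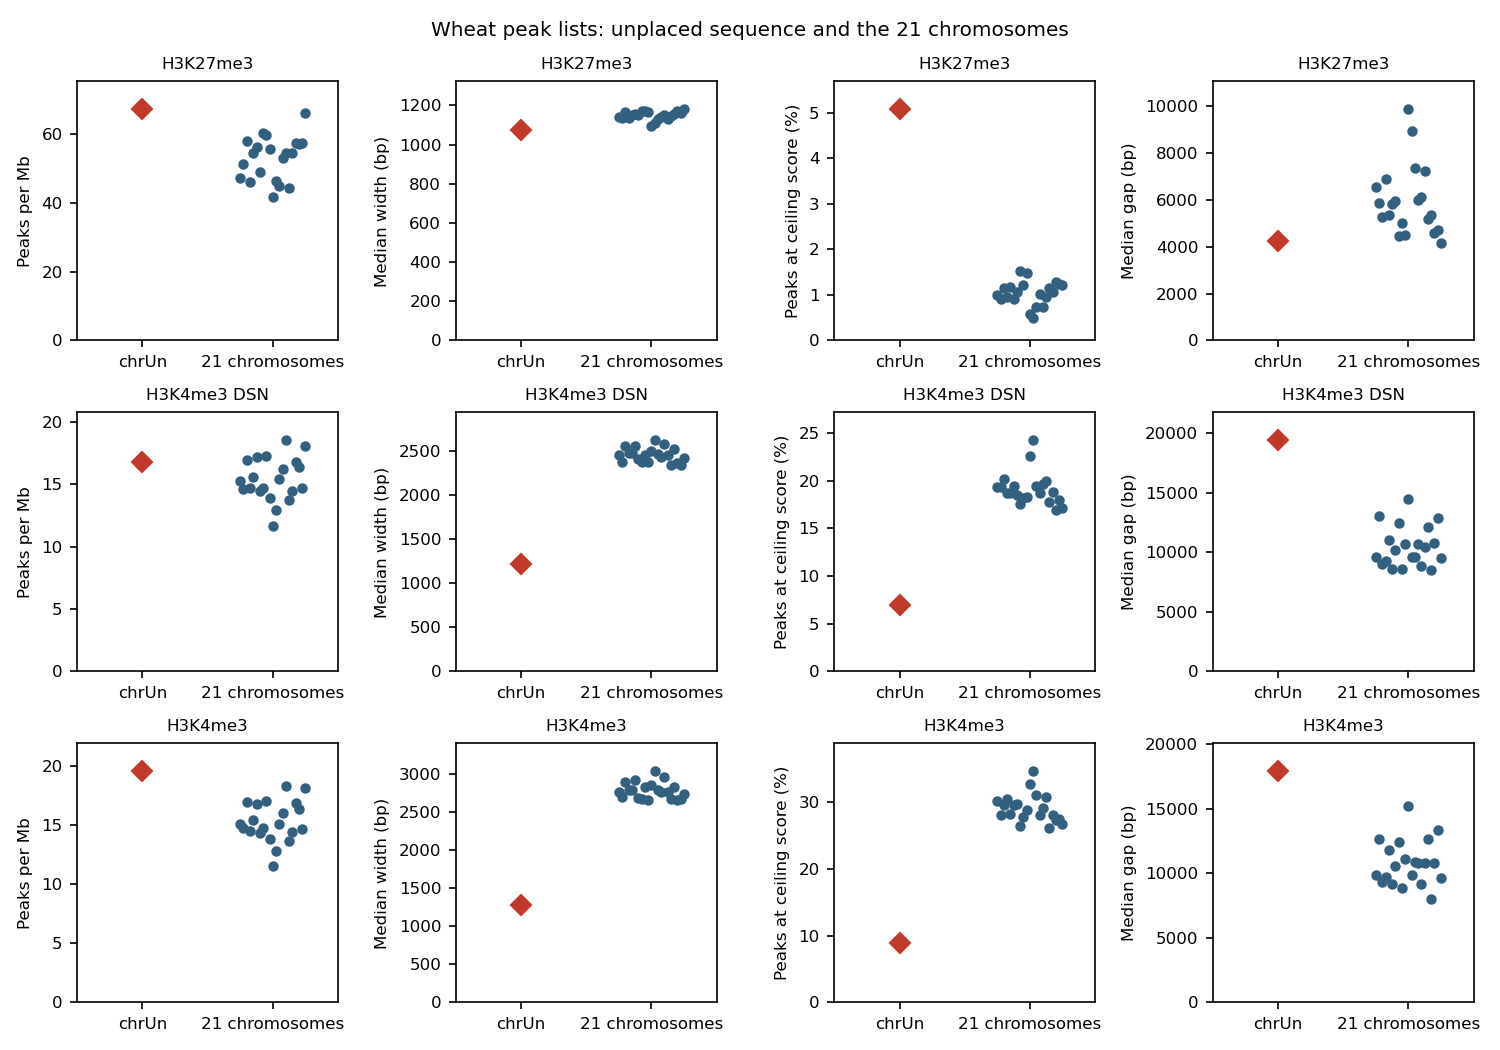
Peaks per Mb, median peak width in bp, share of peaks at the ceiling score in percent and median gap between neighbouring peaks in bp, for chrUn (red diamond) and each of the 21 chromosomes (blue points), with a row for each list and all axes starting at 0. The median width of H3K4me3 peaks was 1282 bp on chrUn and between 2650 and 3030 bp on the chromosomes, and the ceiling share of H3K27me3 peaks was 5.08% on chrUn and between 0.483% and 1.52% on the chromosomes.

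H3K4me3 peaks on chrUn were short. Their median width was 1282 bp (quartiles 891 and 2326 bp), against 2767 bp over the chromosomes, where the medians ran between 2650 and 3030 bp. The DSN list showed the same order, with a median of 1222 bp on chrUn (quartiles 860 and 2203 bp) against 2447 bp (2344 to 2620 bp by chromosome). All 3 subgenomes lay far above chrUn, with H3K4me3 medians of 2722 bp on A, 2722 bp on B and 2868 bp on D. H3K27me3 peaks differed less, with a median of 1076 bp on chrUn (quartiles 804 and 1584 bp) against 1149 bp (1095 to 1180 bp by chromosome).

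Short peaks made up a larger share of the peaks on chrUn than on the chromosomes in every list. Peaks under 750 bp were 20.2% of H3K27me3 peaks on chrUn and 7.19% on the chromosomes, with 7.73% over the whole list. In the DSN list they were 15.1% on chrUn and 1.99% on the chromosomes, with 2.47% over the whole list. Among H3K4me3 peaks they were 14.1% on chrUn and 0.961% on the chromosomes, where no chromosome passed 1.64%, with 1.51% over the whole list. At the other end, peaks over 5000 bp were 1.65% of H3K27me3 peaks on chrUn against 1.06%, but 5.71% of H3K4me3 peaks against 15.5%. The widest 1% of H3K27me3 peaks began at 5871 bp on chrUn and at 5078 bp on the chromosomes, so both tails of H3K27me3 width were longer on chrUn.

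Scores differed in opposite directions between the marks. The score is the peak caller's own value for a peak, with 50 as the lowest in the H3K27me3 and H3K4me3 lists, and its scale is not defined in the file headers. The median score of H3K27me3 peaks was 216 on chrUn, against 91.3 over the chromosomes (79.0 to 101 by chromosome), a ratio of 2.37. For DSN peaks it was 164 on chrUn against 890 (716 to 1236 by chromosome), a ratio of 0.184. For H3K4me3 peaks it was 187 on chrUn against 1218 (958 to 1712 by chromosome), a ratio of 0.154. Scores below 100 were held by 25.4% of H3K27me3 peaks on chrUn against 54.8% on the chromosomes, and by 30.6% of H3K4me3 peaks against 15.0%. In all 3 lists the median of chrUn lay outside the range of the chromosomes.

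The ceiling scores showed the same opposition. Many peaks sat at a score of 3100 and few above it, up to 3233.06, and a score of 3100 or more is called the ceiling here. On chrUn 1642 H3K27me3 peaks reached it, 5.08% (4.85 to 5.33%), against 1.08% on the chromosomes and 1.24% over the whole list. The share on chrUn was 4.72 times that of the chromosomes, whose highest value was 1.52% on 3B. Of DSN peaks on chrUn 562 reached the ceiling, 6.96% (6.43 to 7.54%), against 18.9% on the chromosomes and 18.5% over the whole list. Of H3K4me3 peaks on chrUn 841 reached it, 8.92% (8.37 to 9.52%), against 28.9% on the chromosomes and 28.1% over the whole list. The lowest chromosome had 26.2% in the H3K4me3 list and 16.9% in the DSN list. Beyond the first 140 Mb of chrUn, a split chosen after the values were seen, the share was 3.73% for DSN and 4.14% for H3K4me3.

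Spacing is the gap between the end of a peak and the start of the next on the same sequence. The median gap between H3K27me3 peaks was 4255 bp on chrUn, against 5628 bp on the chromosomes (4160 bp on 7D to 9860 bp). This order depended on what was counted. Among peaks of score 100 or more the median gap was 5344 bp on chrUn against 4823 bp, and beyond the first 140 Mb of chrUn it was 6751 bp. The median gap between DSN peaks was 19424 bp on chrUn against 10344 bp (8541 to 14452 bp by chromosome), and that between H3K4me3 peaks was 17919 bp against 10712 bp (8046 to 15236 bp). Beyond the first 140 Mb these medians were 37671 bp for DSN and 28543 bp for H3K4me3.

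More H3K4me3 peaks per length and longer median gaps stood together with a narrower spread of gaps on chrUn between the 10th and 90th percentiles. The 10th percentile of H3K4me3 gaps was 775 bp on chrUn against 308 bp on the chromosomes, and the 90th percentile was 120965 bp on chrUn against 183914 bp. The upper quartile was also smaller on chrUn, 57371 bp against 61987 bp, and 14 of the 21 chromosomes lay above chrUn. Close neighbours and gaps of this upper range were thus both scarcer on chrUn. The longest gap between H3K4me3 peaks was 3750 kb on chrUn, above the longest on a chromosome, 3351 kb on 3A. In the DSN list the upper quartile of gaps was larger on chrUn, 66567 bp against 61984 bp. The 90th percentile of DSN gaps was smaller, 146496 bp against 184900 bp.

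Recovery of H3K4me3 peaks after DSN treatment was lower on chrUn. An H3K4me3 peak is called recovered where at least 1 bp of it lies under a DSN peak. On chrUn 6530 of 9423 H3K4me3 peaks were recovered, 69.3% (68.4 to 70.2%), against 85.5% on the chromosomes (84.2 to 86.5% by chromosome) and 84.8% over the whole list. In the other direction 6977 of 8069 DSN peaks on chrUn had an H3K4me3 peak, 86.5% (85.7 to 87.2%), against 94.4% on the chromosomes and 94.1% over the whole list. In bases, the Jaccard index, shared over joint length, of the DSN and H3K4me3 lists was 0.631 on chrUn and 0.746 on the chromosomes.

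Recovery depended on the score, and chrUn had the lower scores. In H3K4me3 peaks of score 50 to 75 recovery was 26.6% on chrUn and 31.0% on the chromosomes. In those of score 75 to 100 it was 42.2% on chrUn and 43.5% on the chromosomes. The gap was widest in the class of 100 to 150, with 53.6% (50.9 to 56.3%) on chrUn against 59.1% (58.3 to 59.9%), and in those of score 150 to 250 recovery was 77.0% and 79.0%. The intervals stood apart in 2 of the 9 classes, 50 to 75 and 100 to 150. Every chrUn H3K4me3 peak of score 1000 or more was recovered, including all 841 at the ceiling. The chromosomes showed the same, with 25151 of 25152 recovered at score 1000 to 2000, and all above, including 62066 at the ceiling. Given the same mix of score classes as chrUn, recovery on the chromosomes would have been 71.5%, which leaves chrUn 2.15 percentage points lower in place of 16.2. Given the same mix of widths it would have been 66.3%, 2.95 points below chrUn. The 2893 H3K4me3 peaks of chrUn that were not recovered had a median width of 957 bp and a median score of 78.9. On the chromosomes the 31144 unrecovered peaks had medians of 1241 bp and 80.7. Recovered peaks on chrUn had medians of 1645 bp and a score of 385, against 3101 bp and 1856 on the chromosomes.

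Where 1 DSN peak met 1 H3K4me3 peak, the pair could be compared directly. There were 5667 such pairs on chrUn, with median widths of 1290 bp in the DSN list and 1517 bp in the H3K4me3 list. The DSN peak was the narrower in 69.5% of pairs on chrUn, against 73.1% on the chromosomes, and the median ratio of DSN to H3K4me3 width was 0.935 on chrUn and 0.910 on the chromosomes. The DSN score was the lower in 74.0% of pairs on chrUn and in 68.4% on the chromosomes. H3K4me3 peaks that met more than 1 DSN peak were 5.84% on chrUn and 11.6% on the chromosomes. The lists do not show the sequencing depth of the DSN and H3K4me3 libraries.

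H3K4me3 peaks on chrUn lay under H3K27me3 peaks more often than on any chromosome. On chrUn 7033 of 9423 H3K4me3 peaks shared at least 1 bp with an H3K27me3 peak, 74.6% (73.7 to 75.5%), against 56.4% on the chromosomes (46.3% on 4D to 61.8% on 7D) and 57.1% over the whole list. The DSN list gave 5990 of 8069 peaks, 74.2% (73.3 to 75.2%), against 53.6% on the chromosomes and 54.4% over the whole list. In bases, H3K27me3 peaks held 58.3% of the H3K4me3 length on chrUn and 31.0% on the chromosomes. The shared length was 6.17 times that expected from the covered lengths on chrUn and 4.11 times on the chromosomes.

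This overlap was higher on chrUn at every score and every width of the H3K4me3 peak. In the lowest score class, 50 to 75, it was 57.8% on chrUn against 40.8% on the chromosomes. It reached 91.0% on chrUn against 74.2% in the class of 1000 to 2000, and was 79.0% against 49.6% at the ceiling. The intervals of chrUn and the chromosomes did not overlap in any of the 9 score classes. Given chrUn's mix of scores the chromosomes would have had 54.8%, and given its mix of widths 52.0%. In the narrowest H3K4me3 peaks, under 750 bp, the overlap was 63.4% on chrUn against 53.7%, and in those of 5000 bp or more it was 83.1% against 57.6%.

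The reverse share depended on the score. Of H3K27me3 peaks on chrUn 7837 shared a base with an H3K4me3 peak, 24.3% (23.8 to 24.7%), against 20.2% on the chromosomes (16.1 to 23.9%) and 20.4% over the whole list. Within score classes the order was turned in 7 of 9. H3K27me3 peaks of score 250 to 500 met H3K4me3 in 20.6% of cases on chrUn and 38.1% on the chromosomes, and those at the ceiling in 80.7% and 85.2%. Given chrUn's mix of scores the chromosomes would have had 33.5%, which puts chrUn 9.26 points lower. Given its mix of widths they would have had 20.7%, which leaves chrUn 3.54 points higher. Among peaks of score 100 or more in both lists the share was 23.7% on chrUn against 31.7%. DSN peaks met 6426 H3K27me3 peaks on chrUn, 19.9%, against 18.3% on the chromosomes and 18.4% over the whole list.

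**Figure D2:**
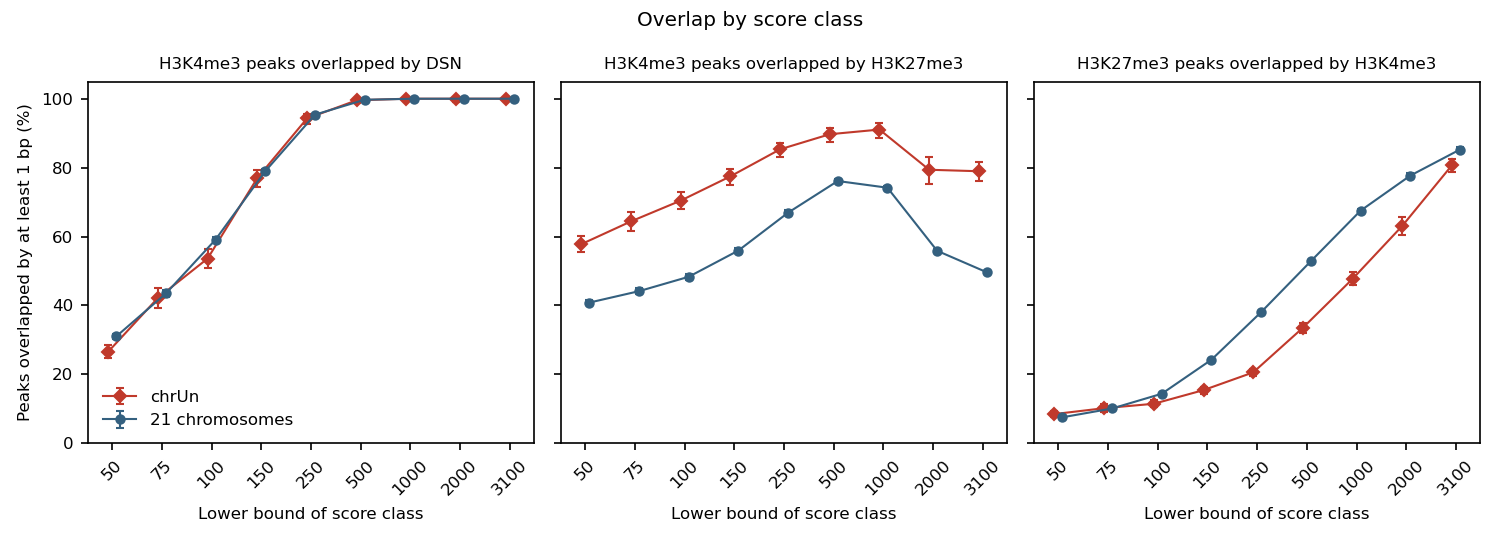
Share of peaks overlapped by at least 1 bp, in percent, by score class (lower bounds 50 to 3100), on chrUn (red diamonds) and the 21 chromosomes (blue points), with bars for 95% Wilson intervals. The lines run close together for H3K4me3 peaks overlapped by DSN, chrUn lies above in all 9 classes for H3K4me3 peaks overlapped by H3K27me3, and below in 7 of 9 for H3K27me3 peaks overlapped by H3K4me3.

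Sorting the H3K4me3 peaks of chrUn by both overlaps showed where the lists parted. Those with both a DSN and an H3K27me3 peak were 55.2% on chrUn and 50.2% on the chromosomes. Those with a DSN peak and no H3K27me3 peak were 14.1% on chrUn and 35.2% on the chromosomes. Those with H3K27me3 and no DSN peak were 19.4% on chrUn and 6.12% on the chromosomes, and those with neither were 11.3% and 8.39%. The 1827 chrUn peaks with H3K27me3 and no DSN peak were short and weak, with a median width of 1001 bp and a median score of 84.2, and none was at the ceiling. The same held for the chrUn peaks with neither partner, with medians of 909 bp and 71.4. On the chromosomes the peaks with H3K27me3 and no DSN peak had medians of 1245 bp and 82.0, and none was at the ceiling.

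H3K27me3 peaks of chrUn also separated by their partner. The 7837 that met H3K4me3 had a median width of 1413 bp, a median score of 784 and a ceiling share of 16.9%. The other 24479 had a median width of 1004 bp, a median score of 166 and a ceiling share of 1.30%. On the chromosomes the ceiling share was 4.55% with H3K4me3 and 0.199% without. The share of chrUn was thus higher in both classes. The series named no input sample of wheat chromatin, so these overlaps have no background measured the same way.

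Counted in 1-Mb windows by peak midpoint, chrUn had 481 windows and the chromosomes 14088. The median window held 57 H3K27me3 peaks on chrUn against 41, 13 DSN peaks against 12 and 16 H3K4me3 peaks against 12. H3K27me3 peaks were absent from 2 of the 481 windows of chrUn and from 1 of the 14088 on the chromosomes. DSN peaks were absent from 12 and 206 windows in the same order, and H3K4me3 peaks from 12 and 192. Across the 481 windows the peak numbers of H3K27me3 and H3K4me3 had a Spearman rho of 0.765, and those of DSN and H3K4me3 one of 0.942. Within chromosomes these were 0.264 to 0.690 and 0.955 to 0.979. Neighbouring windows are not independent and the windows of a list share 1 library, so these are descriptions.

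A window is called dense where its peak number exceeded the 99th percentile of the chromosome windows in the same list, which was 209 peaks for H3K27me3, 53.1 for DSN and 53 for H3K4me3. On chrUn 4 windows were dense in H3K27me3, 0.832% of its windows (0.324 to 2.12%) against 0.951% on the chromosomes and 0.947% of all windows. In DSN 11 were dense, 2.29% (1.28 to 4.05%) against 1.001% on the chromosomes and 1.04% of all windows. In H3K4me3 16 were dense, 3.33% (2.06 to 5.33%) against 0.994% on the chromosomes and 1.07% of all windows. How far chrUn lay from the chromosomes depended on the measure. Above the 95th percentile of the chromosome windows, chrUn had the larger share in all lists, with 34 windows or 7.07% against 4.96% for H3K27me3, 36 or 7.48% against 4.58% for DSN, and 49 or 10.2% against 4.73% for H3K4me3. With peaks of score 100 or more, 3 windows of chrUn were dense in DSN, 0.624% against 0.838% on the chromosomes, and 9 in H3K4me3, 1.87% against 0.980%. Ranked by covered bases, the dense windows of chrUn were 3 in DSN, 0.624% against 1.001%, and 6 in H3K4me3, 1.25% against 1.001%. The larger DSN share of chrUn was thus turned under both settings, and the H3K4me3 share by covered bases was near that of the chromosomes. The turned DSN shares rest on 3 windows each, and no interval was computed for them. For H3K27me3 these settings gave 6 windows, 1.25% against 0.965%, and 5 windows, 1.04% against 1.001%.

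**Figure D3:**
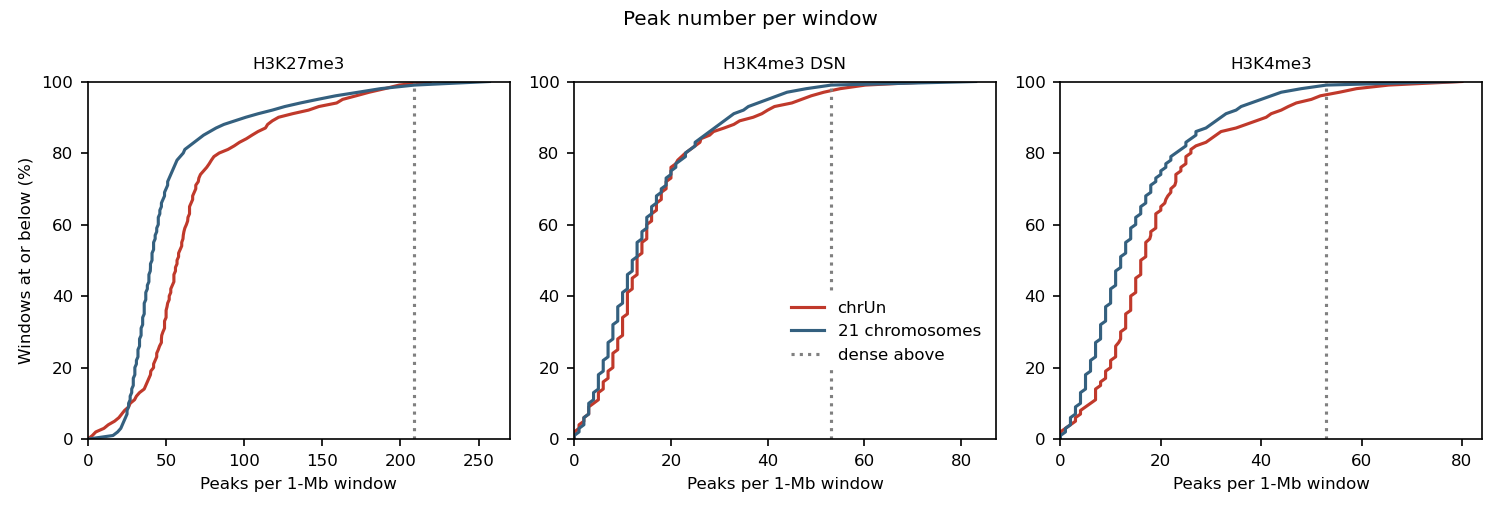
Cumulative share of 1-Mb windows, in percent, by peaks per window for each list, on chrUn (red) and the 21 chromosomes (blue), with the limit above which a window is dense (dotted). The chrUn curve lies to the right of the chromosomes through most of the H3K27me3 and H3K4me3 panels, with medians of 57 against 41 and 16 against 12 peaks, and close to them in the DSN panel, with 13 against 12.

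The dense windows of all lists together were 19, in 12 stretches. Of these, 9 were dense in 1 list, 8 in 2 lists and 2 in all 3, and 14 of the 19 lay in the first 140 Mb. The 2 dense in all lists were 34000001 to 35000000, with 217 H3K27me3, 55 DSN and 59 H3K4me3 peaks, and 41000001 to 42000000, with 219, 63 and 67 peaks in the same order. The other windows dense in H3K27me3 were 36000001 to 37000000, with 219 peaks over 44.4% of its bases, and 94000001 to 95000000, with 210 peaks. The fifth richest in H3K27me3, 96000001 to 97000000, had 200 peaks and was under the limit. The window with most DSN peaks was 79000001 to 80000000, with 75, and it held 70 H3K4me3 peaks. The window 24000001 to 25000000 held 63 DSN and 60 H3K4me3 peaks, and 93.3% of its H3K4me3 peaks met H3K27me3.

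There were 3 stretches of at least 2 adjoining dense windows. From 34000001 to 37000000 there were 626 H3K27me3 peaks covering 41.9% of the bases, with 164 DSN and 160 H3K4me3 peaks. From 87000001 to 89000000 there were 359 H3K27me3 peaks covering 36.7%, with 106 DSN and 117 H3K4me3 peaks. The last ran from 471000001 to 476000000, 5 windows near the end of chrUn, and was built differently. It had 825 H3K27me3 peaks, 165 per Mb, but they covered only 14.8% of the bases and had a median width of 774 bp. It had 287 DSN and 342 H3K4me3 peaks, or 68.4 H3K4me3 peaks per Mb, with median widths of 869 bp and 971 bp. Its richest window, 474000001 to 475000000, held 80 H3K4me3 peaks, more than the highest chromosome window at 79, and 73 DSN peaks. The windows at 471000001 and 472000001 held 70 and 69 H3K4me3 peaks, and the window at 472000001 held 61 DSN peaks. In this end stretch 74.3% of the H3K4me3 peaks were recovered after DSN treatment and 83.3% met H3K27me3.

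**Figure D4:**
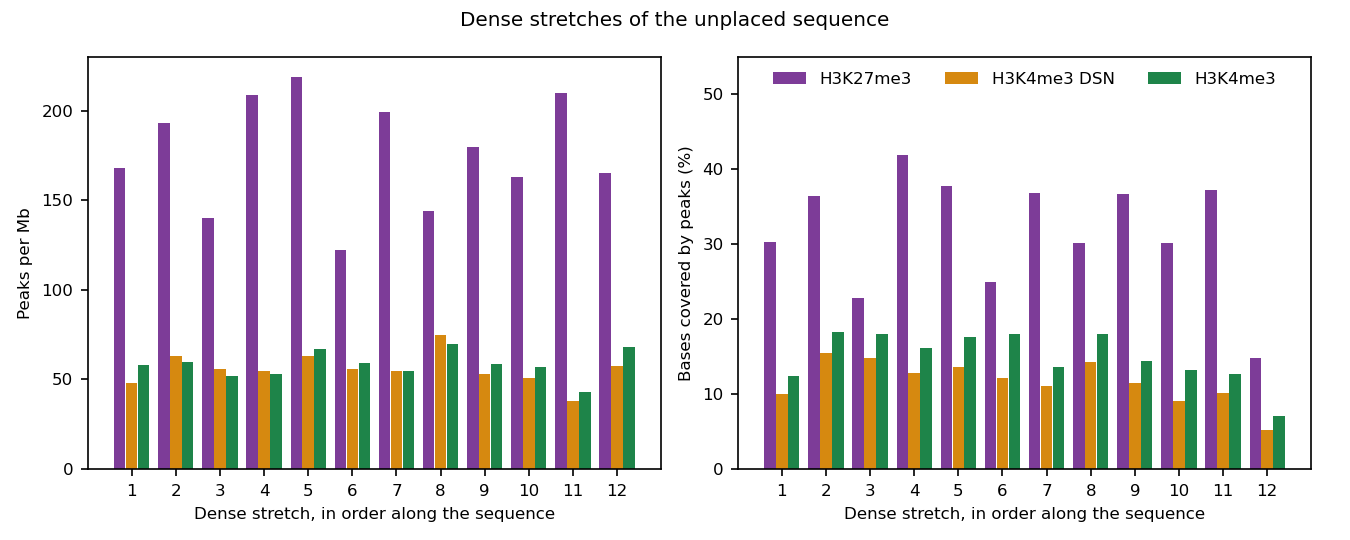
Peaks per Mb (left) and bases covered by peaks in percent (right) in the 12 dense stretches of chrUn, numbered in their order along the sequence, with bars for H3K27me3, DSN and H3K4me3. The last stretch, of 5 windows, has 68.4 H3K4me3 peaks per Mb and 14.8% of its bases under H3K27me3, the lowest cover of the 12.

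Peak number and width changed along chrUn. The order of scaffolds on chrUn is that of the assembly, and the rule behind it is not given in the sources used here. The first 140 windows held 94.7 H3K27me3 peaks per Mb and the later 341 held 55.9. The same split gave 25.6 and 13.1 DSN peaks per Mb, and 26.6 and 16.7 H3K4me3 peaks per Mb. The median H3K4me3 width was 2131 bp in the first 140 windows and 1040 bp in the later ones, and DSN recovery was 78.2% and 63.5%. The share of H3K4me3 peaks with H3K27me3 was 77.2% in the first windows and 72.9% in the later ones. In segments of 20 windows it ran between 62.6% (53.5 to 70.9%) in the ninth and 82.4% (78.5 to 85.7%) in the 16th. The intervals of the seventh and of the ninth to 11th segments included the value of the highest chromosome, 61.8%.

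In consecutive segments of 20 windows the values went down and up again. H3K27me3 density was highest in the second segment, with 135 peaks per Mb, and lowest in the seventh, with 34.7, and was 68.4 in the 17th. Median H3K4me3 width was 2691 bp in the sixth segment and 2654 bp in the seventh, both within the range of the chromosomes. It was then 1273 bp in the eighth, 890 bp in the ninth and 1535 bp in the 16th. After that it was lower again, 932 bp in the last. The sixth segment also had the highest DSN recovery, 87.1% (83.2 to 90.3%), and the eleventh the lowest, 53.4% (47.5 to 59.1%). In the seventh, recovery was 84.1% (77.3 to 89.2%). The median H3K27me3 width was 1315 bp in the second segment and 791 bp in the last. The 24th segment was rich again, with 113 H3K27me3 and 42.6 H3K4me3 peaks per Mb. Under a cut that does not follow the segments, the 16 windows before the last 5 had 133 and 50.3 per Mb. In the last 5 windows there were 25.6 H3K27me3 and 10.4 H3K4me3 peaks per Mb, with median widths of 535 bp and 590 bp.

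**Figure D5:**
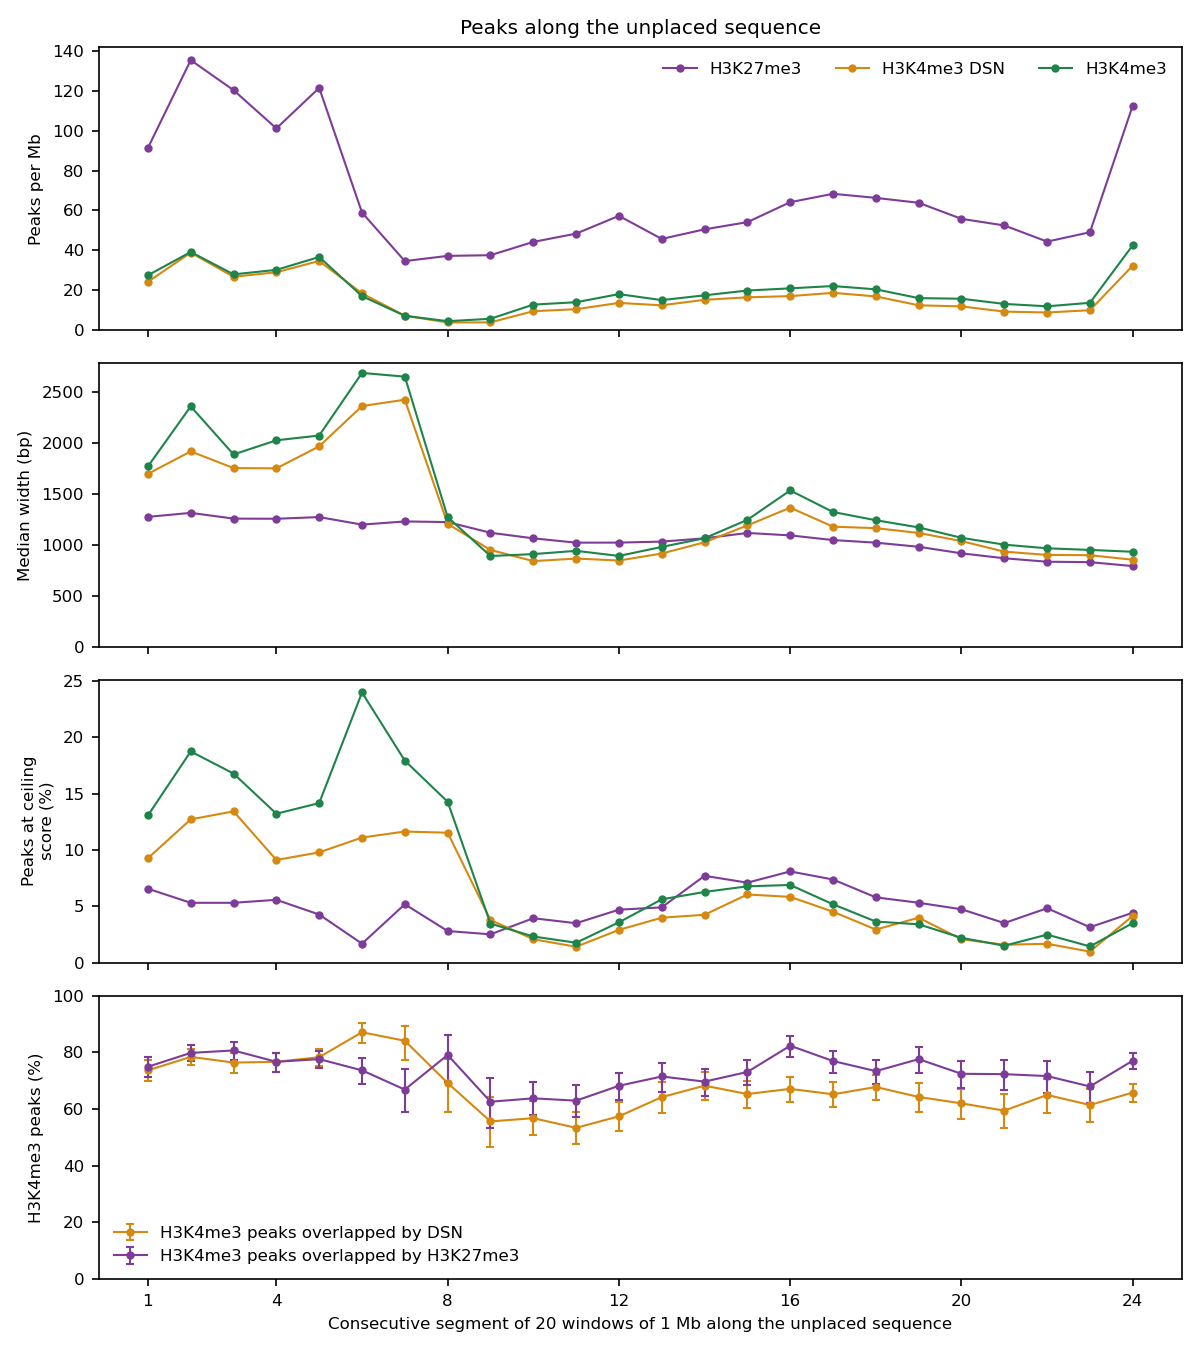
Peaks per Mb, median width in bp, share of peaks at the ceiling score in percent, and share of H3K4me3 peaks overlapped by DSN or by H3K27me3 in percent (bars for 95% Wilson intervals), in 24 consecutive segments of 20 windows along chrUn. Peak numbers are high in the first 5 segments and in the last, and median H3K4me3 width is 2691 bp in the sixth segment and 890 bp in the ninth.

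Wide H3K27me3 peaks of chrUn more often stood without H3K4me3 than those of the chromosomes. The 3 widest were 134754875 to 134777850 (23.0 kb), 152810017 to 152831255 (21.2 kb) and 134646615 to 134666991 (20.4 kb), and none shared a base with a DSN or H3K4me3 peak. Of the 59 H3K27me3 peaks of 10 kb or more, 37 had no H3K4me3 peak, 62.7% (49.95 to 73.9%), against 34.7% (29.9 to 39.8%) of 346 on the chromosomes and 38.8% over the whole list. This width limit was chosen after the values were seen. At 5 kb or more the peaks without H3K4me3 were 44.5% of 533 on chrUn, against 29.2% of 7902 on the chromosomes. At 15 kb or more they were 8 of 10 on chrUn (49.0 to 94.3%), against 59.5% (43.5 to 73.7%) of 37, and these intervals overlapped.

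A run of 3 windows, 134000001 to 137000000, was also chosen after its values were seen. It held 11 of the 59 chrUn peaks of 10 kb or more. It had 290 H3K27me3 peaks over 26.8% of its bases, of which 43 were 5 kb or wider and 29 were at the ceiling. Only 15 of the 290, 5.17%, met an H3K4me3 peak, and the run held 23 DSN and 21 H3K4me3 peaks. It contained the widest of the 3 H3K27me3 peaks that shared the highest score on chrUn, 3233.06. This peak, 134814682 to 134823192 (8.51 kb), met no H3K4me3 peak. The next in width, 22832612 to 22837000, had 50.1% of its bases under DSN and 41.7% under H3K4me3 peaks. The narrowest, 89317422 to 89318462, met no H3K4me3 peak.

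The strongest H3K4me3 peaks of chrUn kept their DSN partner, as did all 62066 at the ceiling on the chromosomes. The 3 widest of those at the highest score, 3233.06, were 74765883 to 74771747, 26485388 to 26489645 and 124966904 to 124970167, with 89.1%, 96.5% and 89.4% of their bases under DSN peaks. H3K27me3 peaks held 73.7% of the first and 35.0% of the second, and none of the third. The widest H3K4me3 peak, 35307114 to 35334307 (27.2 kb), lay in the dense stretch that begins at 34000001, with 95.6% of its bases under DSN and 6.79% under H3K27me3. The next, 92721208 to 92740178 (19.0 kb), had 80.0% under DSN and no H3K27me3. The third, 110513982 to 110531574 (17.6 kb), was met by the widest DSN peak, 110514078 to 110531567 (17.5 kb), and had 28.1% under H3K27me3.

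The other named DSN peaks lay mostly under H3K4me3. The next widest were 241843606 to 241857156 (13.6 kb) and 86895700 to 86909052 (13.4 kb), with 99.5% and 99.9% of their bases under H3K4me3 and 100% and 81.6% under H3K27me3. The 3 that shared the highest score, 3233.06, were 127028387 to 127032168, 320821998 to 320824588 and 47097630 to 47098486. H3K4me3 peaks held 93.8%, 92.6% and 95.7% of their bases, and H3K27me3 peaks 43.3%, 38.5% and 89.3%.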

How the data were processed

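The 3 wheat peak lists were used as the authors deposited them, 1 list for each library. Peaks were called with MACS, per the file headers, and the authors deposited a score for each from the peak caller. The submitters' processing notes name FastQC and BWA. The genome build, the caller's version, any control and the threshold were not given in the sources used here. Sequencing depth is unknown from these lists. Genome sequence and gene annotation were not used here, so peaks are given by position, counted from 1. With Python 3.11.15, numpy 2.4.6, pandas 2.3.3 and scipy 1.17.1, width, score, gap and overlap of at least 1 bp were computed, and the functions were tested on simulated data. Lengths are furthest peak ends. Shares at chrUn's mix weight the chromosomes' values in 9 score or 7 width classes by chrUn's peak numbers. Regions named are, for each list, the 3 peaks of highest score (ties by width), the 3 widest, the 5 richest windows, and each stretch of at least 2 dense windows. The comparisons and alternatives were chosen with earlier results of these data known. The authors' scores were compared within a list, except in the pairs of 1 DSN and 1 H3K4me3 peak. There the scores of 2 libraries of unknown depth were set side by side.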

Additional observations from a re-analysis of the deposited data

Results flagged for a closer look

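Scores on chrUn differed from those of the 21 chromosomes in opposite directions for the marks, and this difference was not tested. The median score on chrUn over that of the chromosomes was 2.37 for H3K27me3, 0.184 for DSN and 0.154 for H3K4me3. The share of peaks at the ceiling on chrUn over that of the chromosomes was 4.72 for H3K27me3, 0.368 for DSN and 0.309 for H3K4me3.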

How the results depend on the processing

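Of 67 values under another setting, 14 stayed within the counting interval or the limit set for them, 43 moved further and kept their direction and 10 changed direction relative to the chromosomes. In each case below the cause was not tested. With peaks of score 100 or more, the density ratio was 2.09 for H3K27me3, 0.885 for DSN (turned) and 1.05 for H3K4me3. Median widths were then 1243, 1773 and 1760 bp in the same order, and median gaps 5344 (turned), 31385 and 27101 bp. The dense windows were 6 in H3K27me3 (1.25% against 0.965% on the chromosomes, turned), 3 in DSN (0.624% against 0.838%, turned) and 9 in H3K4me3 (1.87% against 0.980%). The DSN recovery of H3K4me3 peaks was 72.1% and the reverse share 93.4%. H3K27me3 overlap by H3K4me3 was 23.7% (turned), and H3K4me3 overlap by H3K27me3 was 76.0%. Without the dense windows of chrUn, the density ratios were 1.24, 1.03 and 1.19, the median gaps 4425, 22142 and 21273 bp, and the H3K4me3 share with H3K27me3 was 73.5%. Beyond the first 140 windows, a setting added after the data were seen, the density ratios were 1.05, 0.857 (turned) and 1.10. Widths there were 966, 976 and 1040 bp and gaps 6751 (turned), 37671 and 28543 bp. The ceiling shares there were 3.73% in DSN and 4.14% in H3K4me3. Recovery there was 63.5%, its reverse 83.4%, H3K27me3 overlap by H3K4me3 22.9% and H3K4me3 overlap by H3K27me3 72.9%. Joining peaks less than 500 bp apart gave median widths of 1112, 1272 and 1324 bp. A score of exactly 3100, also added later, gave ceiling shares of 4.76% for H3K27me3 and 8.36% for H3K4me3. The 95th percentile gave 34 dense windows in H3K27me3 (7.07% against 4.96%, turned), 36 in DSN (7.48% against 4.58%) and 49 in H3K4me3 (10.2% against 4.73%). Covered bases gave 5 in H3K27me3 (1.04% against 1.001%, turned), 3 in DSN (0.624% against 1.001%, turned) and 6 in H3K4me3 (1.25% against 1.001%). Where an overlap needed 50% of the peak, recovery was 64.7%, its reverse 84.2%, H3K27me3 overlap by H3K4me3 20.2% and the reverse 64.9%. No paired analysis was possible because each list is 1 library and no test was run. Depth, mappability and control are not shown by the lists, and a score at the ceiling no longer ranks peaks.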
